A study of Mus musculus with 111 samples.

Results

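Experiment 1 of a study of Nr5a2 in the early mouse embryo compared 16 knockdown embryos with 24 controls. By their labels, the former received siRNAs against Nr5a2 and the latter control siRNAs. These 40 embryos were chosen by the experiment number in their titles, and the series holds 71 others, in experiments 2 and 3 of the same design. Each library came from the polyadenylated RNA of 1 embryo of strain B6129F1 at the 2-cell stage, made with the SmartSeq2 protocol. The injected cells were oocytes still in prophase of meiosis, and each arm received 2 siRNAs, at 20 µM apiece. Arrest was kept up for 5 hours, maturation took 12 hours, and in vitro fertilization was followed by culture in KSOM medium. Per the labels, the injections of both arms also carried marker RNA at 150 ng per µl, coding for histone H2B fused to EGFP in controls and to rsEGFP in knockdown embryos. As a knockdown of RNA, not a deletion, the treatment leaves the gene and any stored protein in place. Which embryos shared a mother is not given in the labels. The p-values rest on the variation among single embryos.

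The product of Nr5a2 is a nuclear receptor without a settled ligand, and a single molecule of it recognizes DNA sites with the core AAGGTCA or AAGGCCA. It is best known as a regulator of bile acid and steroid metabolism in liver, pancreas and gonads, and it is also active in the early embryo and in pluripotent cells. At the 2-cell stage the mouse embryo starts the main wave of transcription from its own genome while it degrades RNA left by the oocyte. Interspersed B1 and B2 repeats are transcribed at that stage too, both on their own and as parts of introns and untranslated regions.

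Depth per embryo lay between 2.24 and 21.4 M estimated counts, and the median was 4.76 M in controls and 4.25 M in knockdown embryos. The means did not differ detectably (two-sided permutation test, 100000 resamples, p = 0.362), and neither did the number of genes with at least 5 counts, with medians of 15136 and 14561 (permutation p = 0.17). Control embryo 8 and knockdown embryos 10 and 13 stood apart: their median correlation with the other embryos was 0.723 to 0.739, against 0.759 to 0.869 in the rest. They also had 12.9% to 13.9% of counts on the mitochondrial genome, where the median was 7.47% in controls and 8.13% in knockdown embryos. Results are given with all 40 embryos and, where they differ, without these 3. Of 20 cumulus and granulosa cell markers 5 passed the filter on low counts, and Amh, Foxl2, Fshr and Inha, which define these cells, did not. The summed level of the list, in which Amh, Foxl2, Fshr and Inha had no part, was 55 to 149 CPM in controls. In knockdown embryos it was 44.7 to 409 CPM, and the median log2 fold change of the 5 that passed was 0.50. Serpine2, the member with the smallest p, was at 30.4 to 91.6 CPM in controls (median 52.5 CPM) and at 36.5 to 406 CPM in knockdown embryos (median 60.8 CPM; edgeR adjusted p = 0.263). The part of such cells in the results was not tested. Of 14 sperm markers 1 passed, and of 9 blood markers 3 passed.

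The target was lower in every knockdown embryo than in the median control. Nr5a2 (chromosome 1, 136842571 to 136960448, minus strand, GRCm38) ranged from 67.2 to 235 CPM (counts per M) in the 24 controls, with a median of 114 CPM, and from 22.3 to 86.4 CPM in the 16 knockdown embryos, with a median of 53.6 CPM. The arms overlapped in range, and 13 of 16 knockdown embryos lay below the lowest control. On the log2 scale Nr5a2 changed by -1.29 (SE 0.18, adjusted p = 2.26e-05 by the quasi-likelihood test of edgeR), and by -1.36 without the 3 embryos apart. Target RNA was thus still measured in all 16 knockdown embryos. A separate row that carries the gene identifier of Nr5a2 was not counted in these values. Its medians were 51.3 CPM in controls and 56.9 CPM in knockdown embryos (log2 fold change 0.22, SE 0.21, edgeR adjusted p = 0.858). What that row measures was not tested. Among the annotated transcripts of the gene, a transcript of 1756 bases fell from a median of 59.2 to 15.6 CPM (log2 fold change -1.90, adjusted p = 1.07e-06). Transcripts of 3446 and 1859 bases also had lower fitted values, without a call (log2 fold changes -2.64 and -1.54, edgeR adjusted p = 0.109 and 0.273). The longest of the measured transcripts, with 4733 bases, had medians of 17.7 and 19.1 CPM (log2 fold change 0.23, adjusted p = 1).

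Marker RNA separated the arms of this experiment completely. Of 2 reporter rows in the table, the second was at 29.2 to 322 CPM in the knockdown embryos, with a median of 142 CPM, and at 0 in 19 of the 24 controls, with a highest value of 0.363 CPM. The first row was at 2.28 to 42.5 CPM in knockdown embryos, while 21 of 24 controls had fewer than 3 counts and the highest control had 2.19 CPM. In the controls of experiment 2 the first row was at 90.1 to 5412 CPM (7 embryos), and in those of experiment 3 at 2.92 to 517 CPM (25 embryos). So the control embryos of experiment 1 held almost no RNA of either row, although the labels give them a marker. By the labels marker and siRNA were injected together, and whether these controls were injected was not tested. In this experiment the presence of marker RNA, the injection itself and the target of the siRNA cannot be told apart. That applies to every difference between the arms. H2bc21, a histone H2B gene whose counts follow the marker, was left out of the ranking.

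**Figure D1:**
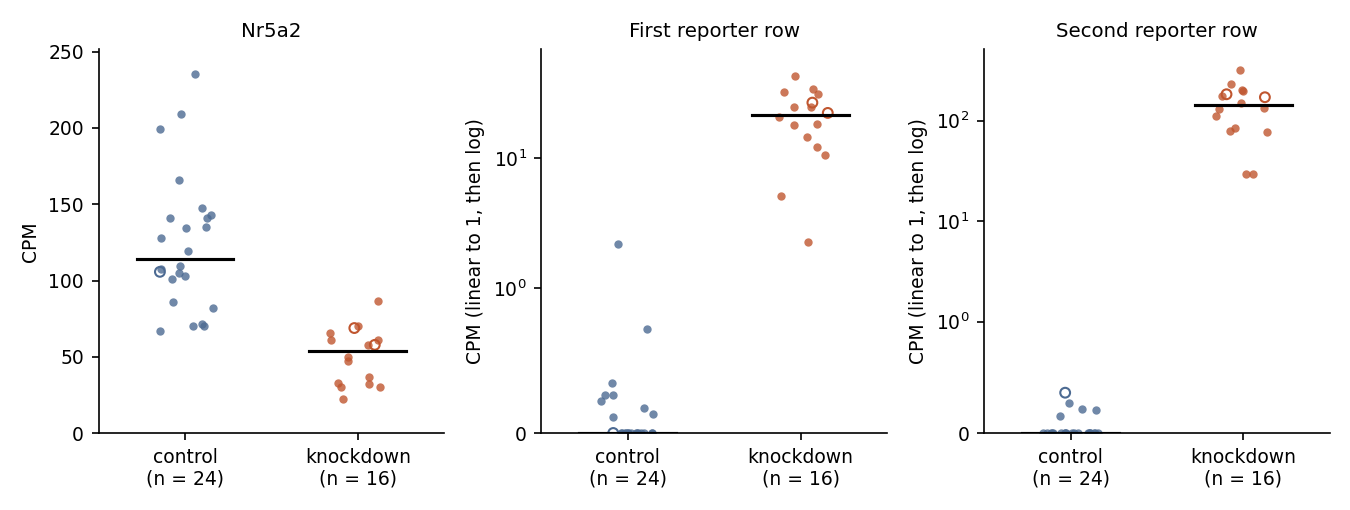
Level of Nr5a2 and of both reporter rows in each embryo (points, CPM), with the median of each arm as a line and the 3 embryos that stand apart as open circles. Nr5a2 overlaps between the arms at 67.2 to 86.4 CPM, while every knockdown embryo lies above every control in both reporter rows.

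Of 13682 genes tested, 21 fell and 85 rose in the knockdown arm with an adjusted p below 0.05. These are 0.153% and 0.621% of the genes tested (0.775% in either direction). At an unadjusted p below 0.05 there were 1187 genes (8.68%), 445 of them lower and 742 higher. Over all genes the median change was 0.03 on the log2 scale. Most called changes were near 2-fold: 11 lower and 46 higher genes reached 2-fold, and the medians were -1.02 and 1.03 on the log2 scale. For none of the 106 genes were the arms without overlap. When the library sizes were set by the oocyte-deposited list alone, 2 lower and 2 higher genes were called. Without the 3 embryos that stand apart, 14 lower and 49 higher genes were called, among them 12 of the 21 and 48 of the 85, and all 106 kept their sign.

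**Figure D2:**
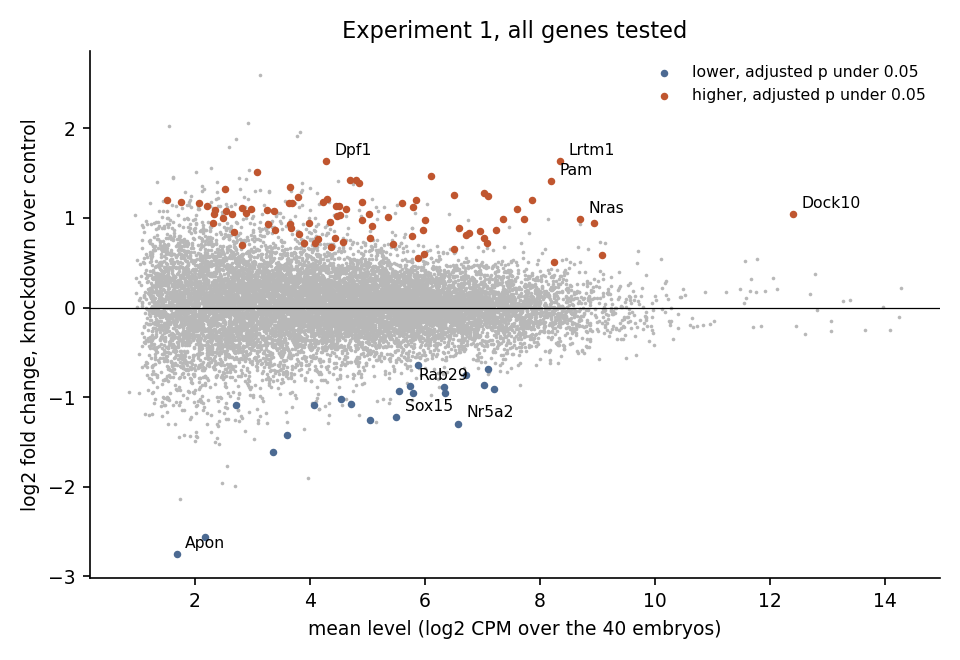
Log2 fold change of knockdown over control (vertical) against mean level in log2 CPM (horizontal) for the 13682 genes tested in experiment 1, with the 21 lower and 85 higher genes in colour. The called gene with the highest level is Dock10, whose counts lie on transcripts with a retained intron.

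The lower genes have varied roles, and they are given here gene by gene. Brd9, a bromodomain subunit of a BAF chromatin remodelling complex, ranged from 23.3 to 160 CPM in controls (median 89 CPM) and from 24.7 to 86.4 CPM in knockdown embryos (median 54.7 CPM). All 16 knockdown embryos lay below the control median, and the only control below them all was the one that stood apart. Its log2 fold change was -0.89 (SE 0.19, edgeR adjusted p = 0.00871). Jade1, a scaffold of a histone acetyltransferase complex, had a lowest, median and highest value of 75.8, 115 and 248 CPM in controls and of 33.7, 67 and 116 CPM in knockdown embryos. The ranges overlapped, with 9 of 16 knockdown embryos under the lowest control (log2 fold change -0.75, SE 0.17, edgeR adjusted p = 0.0186; adjusted p = 0.0661 without the 3 embryos). Mysm1, which removes ubiquitin from histone H2A, fell by 0.69 on the log2 scale (adjusted p = 0.0288, and 0.0534 without the 3). Of 60 measured genes on a list of chromatin writers and erasers, Jade1 was the 1 called, in the lower direction, where 0.153% of all genes were called lower. The median of the list was 0.06 against 0.03 over all genes, and 1 call among 60 genes is not a result about the list.

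Sox15, an HMG-box factor related to Sry, went from 10.9 to 177 CPM in controls (median 57.2 CPM) to 3.35 to 57.3 CPM in knockdown embryos (median 26.5 CPM). The arms overlapped, and 15 of 16 knockdown embryos were below the control median (log2 fold change -1.22, SE 0.31, edgeR adjusted p = 0.0379; 0.0833 without the 3 embryos apart). It was the 1 called member of 25 measured pluripotency and lineage factors, whose median log2 fold change was 0.23. The zinc finger gene Zfp599 ranged from 35 to 302 CPM in controls and from 41.9 to 196 CPM in knockdown embryos (medians 182 and 93.3 CPM; log2 fold change -0.91, SE 0.23, edgeR adjusted p = 0.0291). Nuclear receptors other than the target gave no call among 24 measured, and neither did 11 measured genes reported as Nr5a2 targets in other cells. The latter include Nanog (medians 4.22 and 8.36 CPM, log2 fold change 0.94, edgeR adjusted p = 0.164). Without the 3 embryos apart the log2 fold change of Nanog was 0.42 (edgeR adjusted p = 0.71). With 0.775% of all genes called, no call among so few genes says nothing about these lists.

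Rab29, a small GTPase of vesicle traffic, was at 37.2 to 91.1 CPM in controls (median 67 CPM) and at 10.8 to 66.7 CPM in knockdown embryos (median 37.9 CPM). All 16 knockdown embryos lay under the control median (log2 fold change -0.88, SE 0.17, edgeR adjusted p = 0.00306). Tmed4, a cargo receptor between endoplasmic reticulum and Golgi, had a log2 fold change of -0.95 (adjusted p = 0.0267). Pcyt2, which makes the precursor of phosphatidylethanolamine, was at -0.93 (adjusted p = 0.0438) and Dpagt1, which starts the sugar chain of N-linked glycosylation, was called lower with -0.64. Xylb, a xylulose kinase, was at -0.87 (adjusted p = 0.0291). Myo1g, a class I myosin, fell from a median of 12.5 CPM to 4.24 CPM, and all 16 knockdown embryos were below the control median (log2 fold change -1.62, SE 0.33, edgeR adjusted p = 0.00722). Clhc1 (-1.25), Letmd1 (-1.09), Tbc1d9 (-1.08), Defb42 (-1.02), Nipal1 (-0.96) and Myh7 (-1.43) were also called lower, as was Septin10 (-2.56), a septin with medians of only 3.59 and 0.46 CPM. Pcyt2, Xylb, Nipal1 and Myh7 missed the threshold without the 3 embryos apart, with adjusted p-values of 0.122, 0.0961, 0.112 and 0.0833.

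Among the higher genes the smallest p belonged to Dpf1, a subunit of BAF complexes best known from neurons. It ranged from 3.74 to 21.3 CPM in controls (median 9.57 CPM) and from 16.4 to 62.4 CPM in knockdown embryos (median 27.2 CPM). All 16 knockdown embryos were above the control median and 12 above the highest control (log2 fold change 1.64, SE 0.21, edgeR adjusted p = 7.01e-06). Bhlhe41, a repressor of the circadian clock, was at 75.1, 110 and 240 CPM in controls and at 116, 232 and 439 CPM in knockdown embryos, in the order lowest, median and highest (log2 fold change 0.99, SE 0.16, edgeR adjusted p = 0.000553). Nras, a small GTPase of growth factor signalling, had medians of 276 and 580 CPM (log2 fold change 0.98, adjusted p = 0.000617). Hook2, an adaptor between cargo and microtubule motors, had medians of 15.5 and 30.1 CPM (1.13, adjusted p = 0.000357), and Lipe, the hormone-sensitive lipase, of 13.5 and 31.4 CPM (1.43, adjusted p = 0.00216). For Bhlhe41, Nras, Hook2 and Lipe all 16 knockdown embryos were above the control median, while the ranges overlapped.

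Lrtm1, a leucine-rich repeat membrane protein, and Pam, which amidates peptides at their carboxyl end, varied widely between embryos of the same arm. Lrtm1 ranged from 74.7 to 452 CPM in controls (median 152 CPM) and from 120 to 1857 CPM in knockdown embryos (median 489 CPM; log2 fold change 1.63, SE 0.26, edgeR adjusted p = 0.00031). Pam ranged from 66.5 to 488 CPM and from 108 to 1551 CPM (medians 154 and 422 CPM; log2 fold change 1.41, SE 0.26, edgeR adjusted p = 0.00216). Lrtm1 exceeded 400 CPM in 9 of 16 knockdown embryos and 1 of 24 controls, and Pam did so in 8 and 1. So a number of knockdown embryos kept levels of both genes within the control range.

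**Figure D3:**
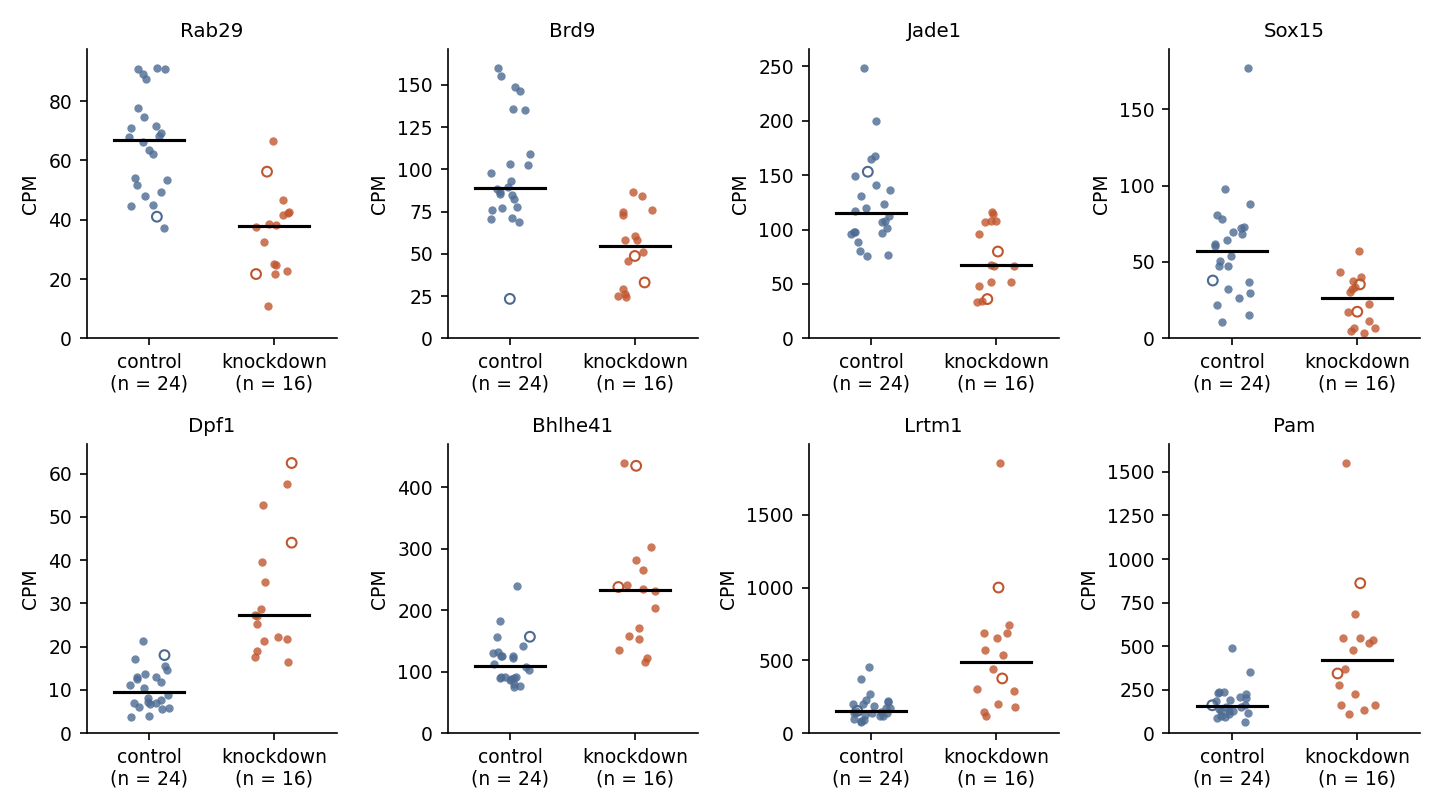
Level of 4 lower genes (upper row) and 4 higher genes (lower row) in each embryo (points, CPM), with the median of each arm as a line and the 3 embryos that stand apart as open circles. The arms overlap for each gene, and Lrtm1 and Pam spread from near the control median to 1857 and 1551 CPM within the knockdown arm.

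Other higher genes that the rule named have varied roles. Gabra2, a subunit of the receptor for the transmitter GABA, had medians of 33.5 and 77.6 CPM (log2 fold change 1.47), and Loxl2, which crosslinks collagen, of 10.7 and 24.4 CPM (1.21). For Gabra2, 97.8% of the counts lay on a transcript annotated for nonsense-mediated decay. Trpm2, a cation channel, was at 1.26, the zinc transporter gene Slc30a9 at 1.20 and the paired-box factor Pax8 at 1.18, each with most counts on retained-intron transcripts, as was Trim12a at 1.35. Xaf1, an interferon-induced gene of apoptosis, was at 1.42, the centrosome gene Cep97 at 1.24, the zinc finger gene Zfp101 at 1.20 and Acnat1, an acyltransferase, at 1.17. Of these, Trpm2, Slc30a9, Pax8, Xaf1, Cep97 and Zfp101 missed the threshold without the 3 embryos apart, with adjusted p-values of 0.112, 0.0819, 0.0697, 0.104, 0.114 and 0.0925.

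The cell adhesion list, with 3 called of 34 measured members, was the only one of the 23 lists with more than 1 call, where 0.621% of all genes were called higher, and its median was 0.02. No test was made of the list. Fermt3, an activator of integrins, had medians of 18.1 and 41.2 CPM (log2 fold change 1.17, SE 0.19, edgeR adjusted p = 0.000565), with 81.8% of its counts on retained-intron transcripts. Cdh6, a cadherin, had medians of 14.2 and 28.1 CPM (1.13, adjusted p = 0.00288), and Adam22, a membrane protein of the disintegrin family, of 44.2 and 84.5 CPM (0.87, adjusted p = 0.00305). Pola2, a subunit of DNA polymerase alpha and primase, was the 1 called of 53 replication genes (medians 120 and 280 CPM, log2 fold change 0.98, adjusted p = 0.0101). Gtpbp4, a GTPase of the large ribosomal subunit, was the 1 called of 92 ribosome biogenesis factors (medians 440 and 678 CPM, log2 fold change 0.59, adjusted p = 0.0139; 0.0833 without the 3 embryos).

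Lists that mark the 2-cell stage gave no call. With 0.775% of all genes called, the lack of a call in lists of this size is not a result about the stage. Of 27 measured 2-cell transcripts 14 had a lower and 13 a higher fitted value, with a median of -0.02. Their summed level ranged from 1995 to 13274 CPM in controls and from 2783 to 9050 CPM in knockdown embryos, so the knockdown embryos lay within the range of the controls. Pramel6, the member with the smallest p, had medians of 148 and 115 CPM (log2 fold change -0.48, edgeR adjusted p = 0.312). Of 7 measured Obox homeobox genes none was called, and their median was 0.40, with Obox1 at medians of 57.3 and 69.2 CPM (adjusted p = 0.363). The 50 measured oocyte-deposited transcripts had a median of 0.14, with 37 positive values and no call. The 36 regulators of genome activation had a median of -0.07. Hdac1, a histone deacetylase among them, had medians of 319 and 238 CPM (log2 fold change -0.48, adjusted p = 0.0567).

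The lists of general cell functions gave no call either, apart from those named above. Of 82 cytosolic ribosomal protein genes 71 had a positive value, with a median of 0.14, and the 74 nuclear genes of oxidative phosphorylation had a median of 0.08. The 13 transcripts of the mitochondrial genome had a median of 0.17. For 50 genes of G2 and mitosis the median was -0.15, with 36 negative values, and Wee1, which holds cells in G2, had medians of 42.2 and 24.3 CPM (adjusted p = 0.312). Medians were -0.01 for 34 p53 and damage response genes, 0.07 for 25 genes of the integrated stress response, -0.02 for 33 heat shock genes and -0.05 for 23 genes of the response to double-stranded RNA. Over the 6 measured Y-linked genes the median was -0.22, with no call.

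The higher calls fell unevenly over kinds of annotated transcript. Of 25761 transcripts tested, 8 were lower and 82 higher (0.0311% and 0.318%). Retained-intron transcripts, which keep an intron of their gene and code for no complete protein, made up 11.0% of the transcripts tested and 43.9% of those called higher (36 of 82), and none was called lower. The median log2 fold change of the 2827 retained-intron transcripts was -0.01, with 49.1% positive. Without the 3 embryos apart, 26 transcripts were higher, 11 of them with a retained intron. These types were looked at after the calls had been seen, and no test was made of them.

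At the gene level, the transcript with most counts was a retained-intron one in 22 of the 85 higher genes (25.9%), in 2 of the 21 lower genes (9.52%) and in 3.75% of all genes tested. Dock10, a guanine nucleotide exchange factor, shows what this means for a level. Its medians were 3500 CPM in controls and 7422 CPM in knockdown embryos (log2 fold change 1.04, adjusted p = 0.000617), and 99.9% of its counts lay on retained-intron transcripts, mainly one of 1899 bases. Pecam1, an adhesion protein of endothelial cells, had 91.4% of its counts on such transcripts. For these genes most counts do not lie on a transcript that codes for the protein. The share of all counts on retained-intron transcripts was 3.41% to 4.88% in controls (median 4.38%) and 3.16% to 6.14% in knockdown embryos (median 4.76%). The arms overlapped, 7 of 16 knockdown embryos exceeded the highest control, and the difference of means was 0.51 percentage points (two-sided permutation test, 100000 resamples, p = 0.0076, for a measure chosen after the calls were seen). This share counts the called transcripts themselves. Without those of Dock10 alone the medians were 3.88% and 4.00%, and the difference of means was 0.11 percentage points (permutation p = 0.476). Without all called transcripts the medians were 3.74% and 3.76% (difference -0.0067 percentage points, permutation p = 0.964). Both removals took out transcripts called higher in these same embryos, which lowers the difference by construction. Neither p-value can therefore show that the remaining transcripts do not differ. In experiments 2 and 3 the medians of this share were 4.42% and 4.35% in controls and 4.37% and 4.45% in knockdown embryos.

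**Figure D4:**
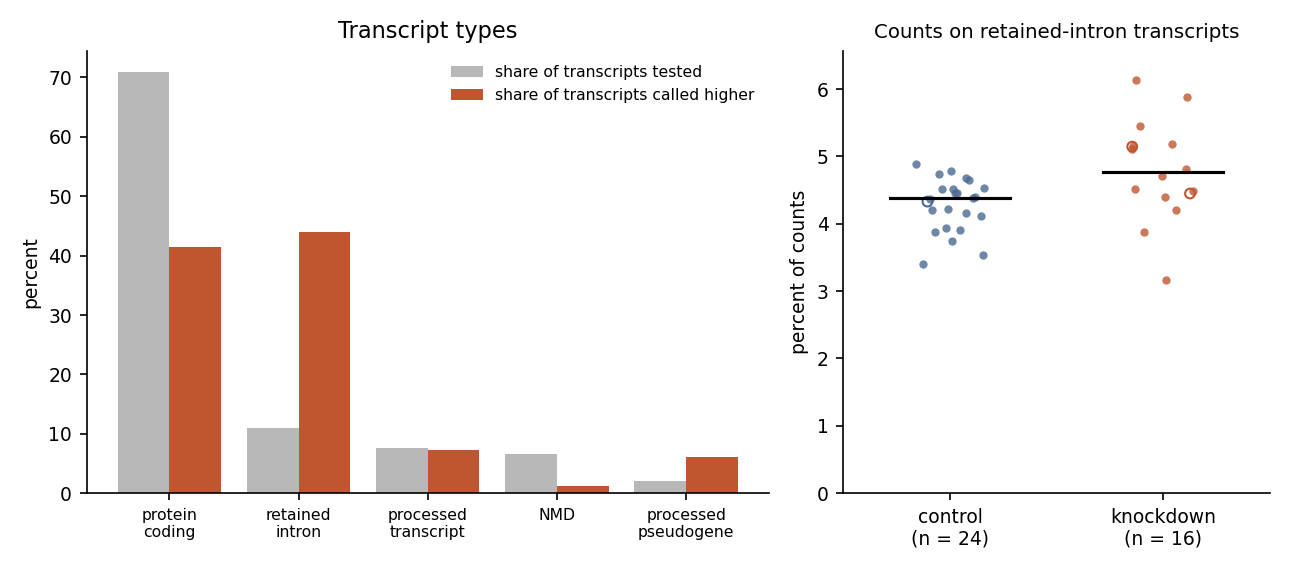
Left, share of each annotated transcript type among the 25761 transcripts tested (grey) and the 82 called higher (orange), in percent; NMD is nonsense-mediated decay. Right, share of each embryo's counts on retained-intron transcripts in percent, with the median of each arm as a line and open circles for the embryos that stand apart. Retained-intron transcripts are 11.0% of those tested and 43.9% of those called higher.

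Stretches of sequence that occur in many genes were more frequent among the higher genes than among all genes. In the main transcript of each gene, stretches of 31 bases were counted on either strand. Only those that occur in the main transcripts of at least 100 genes entered. The stretches were not aligned to B1, B2 or any other repeat, so what they are was not identified. At least 1 such stretch was found in 46 of 83 higher genes with a sequence (55.4%), in 1 of 21 lower genes (Mysm1) and in 10.1% of all 13547 genes with a sequence, so 37 of the 83 held none. With stretches shared by at least 30 genes the shares were 79.5% of higher genes, 9.52% of lower genes and 14.4% of all. Among genes whose main transcript codes for protein, 51.1% of the higher and 9.87% of all genes held a stretch shared by 100. The median length of the main transcript was 2664 bases in higher genes and 2560 bases in all, and 3613 and 2722 bases among those that code for protein. Genes with a stretch shared by 100 had a median of 3932 bases, against 2434 bases in genes without one, and the part of length in these shares was not tested. Nras, Hook2, Pola2 and Pecam1 were among those with a shared stretch, while Dpf1, Lrtm1, Pam and Lipe had none shared by 100 genes. A first setting, which asked for 50 or more stretches shared by 100 genes in 1 transcript, was met by 1 higher gene and by 3 genes in all. Each of these settings was chosen after the calls had been seen.

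Of the B1 and B2 repeat rows in the same table, the B2 row rose by the test and the B1 row did not pass it. The B2 repeat row was at 16.3 to 89 CPM in controls (median 33.1 CPM) and at 30.7 to 123 CPM in knockdown embryos (median 68.2 CPM), and 15 of 16 knockdown embryos lay above the control median (log2 fold change 0.90, SE 0.21, edgeR adjusted p = 0.0208). The B1 row had medians of 40.9 and 53.4 CPM (log2 fold change 0.49, SE 0.19, adjusted p = 0.361). In experiments 2 and 3 the log2 fold change of the B2 row was -0.31 (SE 0.31) and 0.40 (SE 0.20), and that of the B1 row was -0.09 (SE 0.23) and 0.36 (SE 0.15), none of them past the threshold. Reads from a repeat can be assigned to any transcript that holds a copy, and the part of such reads in the higher genes was not tested.

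The higher genes varied together from embryo to embryo within each arm. Over the 66 higher genes with a mean of at least 10 CPM, the median Pearson's r between 2 genes, taken on deviations from the arm mean, was 0.44 across the 24 controls and 0.52 across the 16 knockdown embryos. Over the 9218 genes tested at that level it was 0.0022 and -0.00034. For the 17 lower genes at that level it was 0.29 and 0.22. These correlations are a description over genes that share libraries and scaling.

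Promoters of the lower genes were searched for the core bound by the receptor. Within the 300 bases around the start site (250 before and 50 after), AAGGTCA or AAGGCCA on either strand was found in 2 of 16 lower genes with a promoter sequence (12.5%), in 6 of 60 higher genes (10.0%) and in 10.0% of 10271 genes tested. These shares are close to one another. The longer TCAAGGTCA or TCAAGGCCA was in 1 lower gene, in none of the 60 higher genes and in 0.876% of all. Both lower promoters are shown because they hold the letters, with each match in capitals (RefSeq, GRCm38.p6, plus strand, Apon at chr10:128253881-128254180 and Defb42 at chr14:63046741-63047040). The match in the Apon promoter begins 172 bases before the start, and those in Defb42, a defensin gene, at 179 and 119 bases before it.
Apon: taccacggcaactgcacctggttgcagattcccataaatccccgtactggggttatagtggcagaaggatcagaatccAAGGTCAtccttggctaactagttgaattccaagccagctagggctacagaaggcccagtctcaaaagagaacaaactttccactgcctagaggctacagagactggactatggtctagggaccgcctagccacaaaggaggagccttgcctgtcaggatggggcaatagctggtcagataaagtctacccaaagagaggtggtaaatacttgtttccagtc
Defb42: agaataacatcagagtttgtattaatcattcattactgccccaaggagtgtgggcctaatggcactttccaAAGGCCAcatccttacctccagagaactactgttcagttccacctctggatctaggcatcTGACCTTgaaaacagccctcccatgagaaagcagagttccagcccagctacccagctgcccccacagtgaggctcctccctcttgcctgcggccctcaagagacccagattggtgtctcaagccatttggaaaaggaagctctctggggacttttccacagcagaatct

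The 71 embryos of experiments 2 and 3 were injected with siRNAs against the same target, in embryos that experiment 1 did not use. The contrast is not the same one, because the controls there held marker RNA, at the levels given above. The log2 fold change of H2bc21 was 6.00 in experiment 1, while the embryos of experiments 2 and 3 gave -1.19 and -1.49, with SE of 0.55 and 0.38, and both were short of the threshold. In a fit over experiments 2 and 3 together, with experiment as a factor, H2bc21 was at -1.42 and passed it (SE 0.31, edgeR adjusted p = 0.0205). In the same fit 22 of 13466 genes were called (0.163%). Of the genes called in experiment 1, 5 were among them in the same direction: Nr5a2, Zfp599, Lrtm1, Pam and Cdh6. Lrtm1, Pam and Cdh6 varied closely together in experiment 1, so they are not separate cases. Across its controls r of Lrtm1 was 0.98 with Pam and 0.868 with Cdh6, and across its knockdown embryos 0.997 and 0.957. In the fit over experiments 2 and 3, 18 of 20 measured lower genes had the same sign, with a median of -0.44. So did 77 of 84 higher genes, with a median of 0.19. At an unadjusted p under 0.05 in the same direction there were 9 lower and 21 higher genes, where 2.97% and 3.43% of all genes passed in each direction.

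Experiments 2 and 3 are given side by side from a fit that held the embryos of all 3 experiments. In it, the 85 higher genes had a median of -0.01 in experiment 2, with 42 positive, and of 0.30 in experiment 3, with 77 positive. The 21 lower genes had medians of -0.14 and -0.52, with 15 and 18 negative. Rab29 was at 0.22 (SE 0.46) in experiment 2 and 0.18 (SE 0.29) in experiment 3, whereas Lrtm1 was at 0.98 (SE 0.39) and 1.37 (SE 0.23). The levels of both genes in controls differed between experiments. Mean control levels in experiments 1, 2 and 3 were 65.3, 8.93 and 10.6 CPM for Rab29. For Lrtm1 they were 177, 7.31 and 61.5 CPM, with experiment 1 scaled on its own for both genes. No test of the lists was made across experiments, and experiment 2 has only 7 controls.

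**Figure D5:**
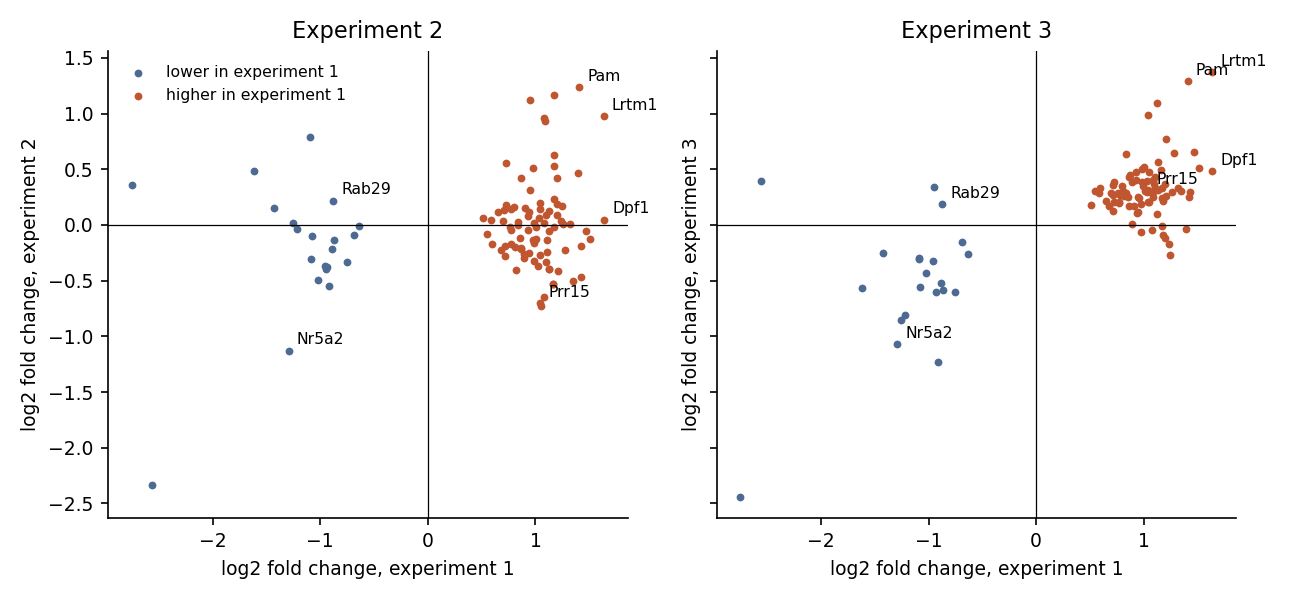
Log2 fold change (knockdown over control) of the 106 genes called in experiment 1, on the horizontal axis, against the same value in experiment 2 (left) and experiment 3 (right). Higher genes scatter around 0 in experiment 2, with 42 of 85 positive, and 77 of 85 are positive in experiment 3.

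The difference between experiments was tested gene by gene, as the effect in experiment 1 minus the mean effect of the other two. Of 17166 genes 7 passed (0.0408%), all with a larger value in experiment 1, and 1054 had an unadjusted p under 0.05. None of the 7 passed against experiment 3 alone, with adjusted p from 0.112 to 0.786, and the 2 genes that passed there, H1f8 and Ppp1r10, are others. Against experiment 2 alone, with its 7 controls, 5 of the 7 passed, and Dpf1 (adjusted p = 0.0793) and Zfp691 (adjusted p = 0.0618) did not. Of these 7, the genes Dpf1, Nras, Prr15 and Zfp691 were also called in experiment 1 itself. Prr15, a proline-rich protein, had medians of 21 and 37.5 CPM in experiment 1 (log2 fold change 1.04, edgeR adjusted p = 0.00765), and values of -0.70 in experiment 2 and 0.31 in experiment 3. Zfp691, a zinc finger gene, had medians of 3.29 and 6.90 CPM (1.08, adjusted p = 0.00923). The response of Nr5a2 itself differed by -0.21 between experiment 1 and the others (adjusted p = 0.966).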

How the data were processed

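Raw estimated counts, also called expected counts, are what the authors deposited for each transcript; kallisto 0.46.1 is among the tools in the submitters' processing notes. They were summed to 36106 gene names and rounded. Transcripts without a gene held a median of 0.564% of counts and were left out. Log2 fold changes and p-values in the authors' deposited comparison tables were used only for gene names. Genes were tested with edgeR 4.0.16 in R 4.3.3: filterByExpr by arm, TMM scaling, quasi-likelihood F-test over the 40 embryos, with 38 residual degrees of freedom, adjusted by Benjamini-Hochberg at 0.05. The test was checked on simulated data for bias and false calls, after a first bar on the share of changed genes recovered had been missed. It missed most simulated 2-fold changes, with 42.3% recovered, while 63.3% of the 30 in genes at 50 CPM or more were recovered. Of simulated 1.5-fold changes 11.1% were recovered, so a gene without a call may have changed. CPM use TMM-scaled totals, except for the reporter rows, which use gene totals. Positions are from GENCODE M21 (GRCm38).

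Named genes were Nr5a2, 16 called genes per direction, those with the largest change at a mean of at least 10 CPM and without a clone name, the 5 smallest p in each direction, up to 2 called members per direction of each of 23 lists or else its smallest p, and called genes that differed between experiments. Dock10, Pecam1, Adam22, Apon and Dpagt1 fell outside this rule and were chosen after their values were seen. Retn, Tnc, Casd1, H1f8 and Ppp1r10 were outside it too, and are named because they passed a test of the difference between experiments. Members and lists were chosen with earlier results of these data known. DESeq2 1.42.0 and limma 3.58.1 served as alternatives. One gene that the rule named is not reported here.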

Additional observations from a re-analysis of the deposited data

Results flagged for a closer look

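The following 7 genes differed in their response between experiment 1 and the mean of experiments 2 and 3 in a test of the difference itself (edgeR quasi-likelihood test, adjusted over 17166 genes), and each difference is on the log2 scale. Against experiment 3 alone none of the 7 passed (adjusted p from 0.112 to 0.786). Against experiment 2 alone, which has 7 controls, 5 passed, and Dpf1 (adjusted p = 0.0793) and Zfp691 (adjusted p = 0.0618) missed the threshold. The difference was 1.35 (SE 0.28, adjusted p = 0.0148) for Dpf1, 1.22 (SE 0.25, adjusted p = 0.0148) for Prr15, 0.85 (SE 0.18, adjusted p = 0.0154) for Nras and 1.4 (SE 0.30, adjusted p = 0.0165) for Zfp691.

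The other 3 genes were barely detected. Retn, which encodes the hormone resistin, differed by 4.07 (adjusted p = 0.00114) with medians of 0.267 and 1.84 CPM in control and knockdown embryos of experiment 1. Tnc, the matrix protein tenascin C, differed by 6.94 (adjusted p = 0.00621): all controls of experiment 1 were at 0, as was the median knockdown embryo, and 1 knockdown embryo at 29.2 CPM stood over the next at 5.28 CPM. Casd1, a sialic acid acetyltransferase, differed by 5.28 (adjusted p = 0.0154) with a median of 0 in both arms and a highest value of 8.18 CPM.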

How the results depend on the processing

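Nr5a2 was called under all 15 alternatives, with log2 fold changes from -1.36 to -1.23 and a highest adjusted p of 0.0342. The 41 other called genes that the naming rule gave kept their direction wherever they were measured. Under the filter of at least 10 CPM in 16 embryos, 37 of the 41 were compared. The counts of lower and higher genes were 21 and 85. They moved to 2 and 2 with size factors from the oocyte list, and to 84 and 426 with no low-count filter. DESeq2 gave 58 and 131, and a model holding principal component 1 gave 75 and 133. A model holding the retained-intron share, which counts the called transcripts themselves, gave 106 and 200. Under it 18 genes out of the 21 stayed called, but only 27 out of the 85 did. Most of the 200 were thus genes without a higher call in the main test. Without the embryos that stand apart 49 genes were higher. With embryo number as a replicate block, over the 32 embryos with shared numbers, 1 gene was lower (Nr5a2) and 0 were higher, where the same 32 embryos gave 3 and 26 without the block. The labels do not say that these numbers pair the embryos. Over 16 pairs r ran from -0.54 to 0.68, 6 were over 0.1, and 3 embryos correlated best with their own number. No chance level was computed for these values, so pairing by number was not tested. The genes that differed between experiments went from 7 to 15 with library totals and to 2 against experiment 3 alone, neither of them among the 7. Transcripts went from 8 to 16 lower with the stricter filter, and from 82 to 26 higher without the embryos apart. The difference in retained-intron share, 0.51 percentage points, was 0.11 without Dock10 and -0.0067 without the called transcripts. Those removals lower it by construction, since every called retained-intron transcript was higher. The causes of the other shifts were not tested.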
